A study of Homo sapiens with 6 samples.

Results

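Glycolysis, the pentose phosphate pathway and the entry of pyruvate into mitochondria were followed here through 30 genes, all of which were found by symbol among the 60564 genes of the count table and all of which passed the filter on low counts. The libraries were RNA sequencing libraries of CAL27, a human tongue squamous carcinoma line in long use, infected with a lentivirus and kept under 5 μg/ml puromycin for 2 weeks. The 3 CNTNAP2-203 OE libraries came from cells overexpressing CNTNAP2-203, a transcript of the adhesion protein gene CNTNAP2, and the 3 control libraries from cells with a control vector, which carry EGFP by their sample descriptions and are labelled WT. Both groups thus share the infection and the selection. The labels do not state whether a line is 1 clone or a pool, nor whether replicates were separate cultures or infections. P-values therefore cover the spread among the sequenced libraries alone, and that spread may be technical.

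As background, glycolysis turns glucose into pyruvate in the cytosol and yields ATP and NADH. Hexokinases trap glucose in the cell as glucose 6-phosphate, phosphofructokinase makes the committed step, and later enzymes release ATP. Glucose 6-phosphate can instead enter the pentose phosphate pathway, which makes NADPH and the ribose of nucleotides. Pyruvate is either reduced to lactate by lactate dehydrogenase and exported, or carried into mitochondria and oxidised to acetyl-CoA by the pyruvate dehydrogenase complex. Squamous carcinomas, like many tumours, are known for high glucose uptake and lactate output. The series asks how CNTNAP2-203 affects growth of oral squamous carcinoma cells, and these genes bear on how such cells handle glucose.

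The libraries held 36843190 to 42412703 counts, and CNTNAP2-203 OE replicate 3 was the shallowest and detected the fewest genes. CNTNAP2 had 0, 3 and 4 counts in the controls and 140022, 156055 and 119280 in CNTNAP2-203 OE replicates 1, 2 and 3, which matches the labels. These counts do not tell the transcript CNTNAP2-203 from others of the gene. All 9 markers of squamous epithelium (KRT5, KRT6A, KRT14, KRT17, TP63, SFN, CDH1, EPCAM and DSG3) were present in every library, at 70.9 CPM (counts per 1e6 after TMM scaling) or more. Under 10 counts in every library were found for 1 of 6 fibroblast markers, 3 of 5 leukocyte markers and 2 of 4 endothelial markers, and the summed level of each of these lists was at most 45.9 CPM in any library. PTPRC, PECAM1 and COL3A1 were among those under 10 counts and KDR was at 0. CD14, CD3E, COL1A1, COL1A2, LUM, PDGFRB, CDH5 and VWF had counts in every library.

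No member passed the test between the groups. By edgeR's quasi-likelihood test with Benjamini-Hochberg adjustment over 18786 genes, 0 of the 30 members were higher and 0 lower at an adjusted p under 0.05, against 1.39% of all tested genes called, 0.798% higher and 0.596% lower. At an unadjusted p under 0.05, 8 members were higher and 1 was lower (26.7% and 3.33% of the members, against 17.2% of all tested genes, 9.41% higher and 7.84% lower). Limma-voom and limma-trend called none either, and DESeq2 called LDHB and TPI1 higher. The median log2 fold change of the members was 0.13, against 0.00 over all tested genes, and 23 of 30 were above 0, against 49.6% of all tested genes. In 9 members all CNTNAP2-203 OE libraries lay above all controls and in 1 all lay below, which is 30% and 3.33% of the members. Over all tested genes this separation was found in 26.5%, with 13.7% above and 12.8% below. The 95% interval of the log2 fold change, computed from its standard error, stayed inside a 2-fold change in both directions for all 30 members.

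**Figure D1:**
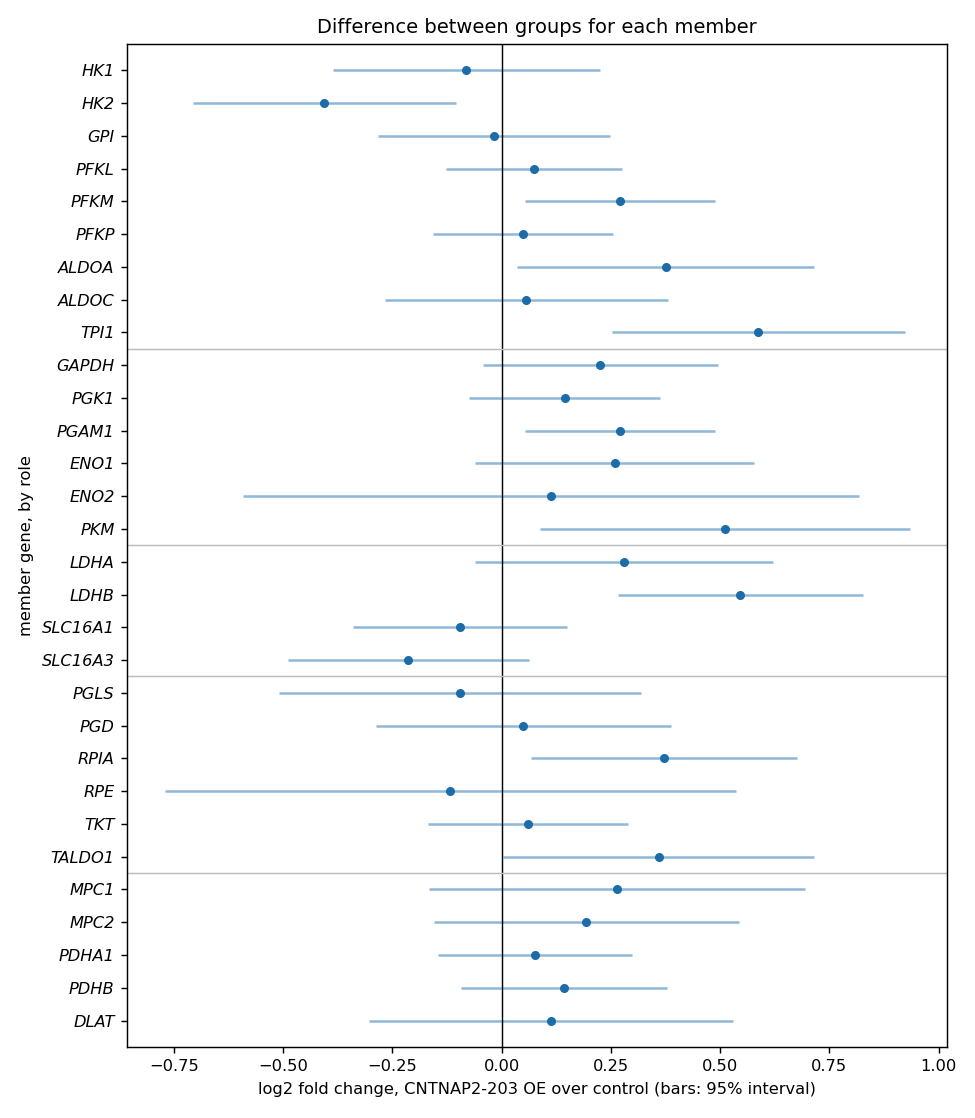
Log2 fold change of each of the 30 members, CNTNAP2-203 OE over control (x axis), with the 95% interval from the edgeR fit as bars and grey lines between the roles. TPI1 and LDHB have the largest positive values at 0.59 and 0.55, HK2 the most negative at -0.41, and no member passed after adjustment.

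In levels per length (FPKM, fragments per kilobase and per 1e6 fragments, from the deposited log2 values), the members spanned a wide range. GAPDH was the most abundant in controls at 2172 ± 102 FPKM (SD, n = 3), followed by ENO1 at 458 ± 7.24 and ALDOA at 233 ± 34.7 FPKM. The lowest were PDHB at 4.83 ± 0.180 and ENO2 at 4.64 ± 1.93 FPKM, and 9 members were above 100 FPKM. Together the 30 genes took 1.77% to 1.90% of all counts in the controls and 2.08% to 2.29% in CNTNAP2-203 OE, with no overlap between the groups. GAPDH alone made up 32.3% to 34.7% of the members' counts. The sum thus mostly follows the most abundant members, and taken singly 20 of the 30 overlapped between the groups by CPM. In bulk RNA, more cells that express a gene and more RNA per cell cannot be told apart.

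**Figure D2:**
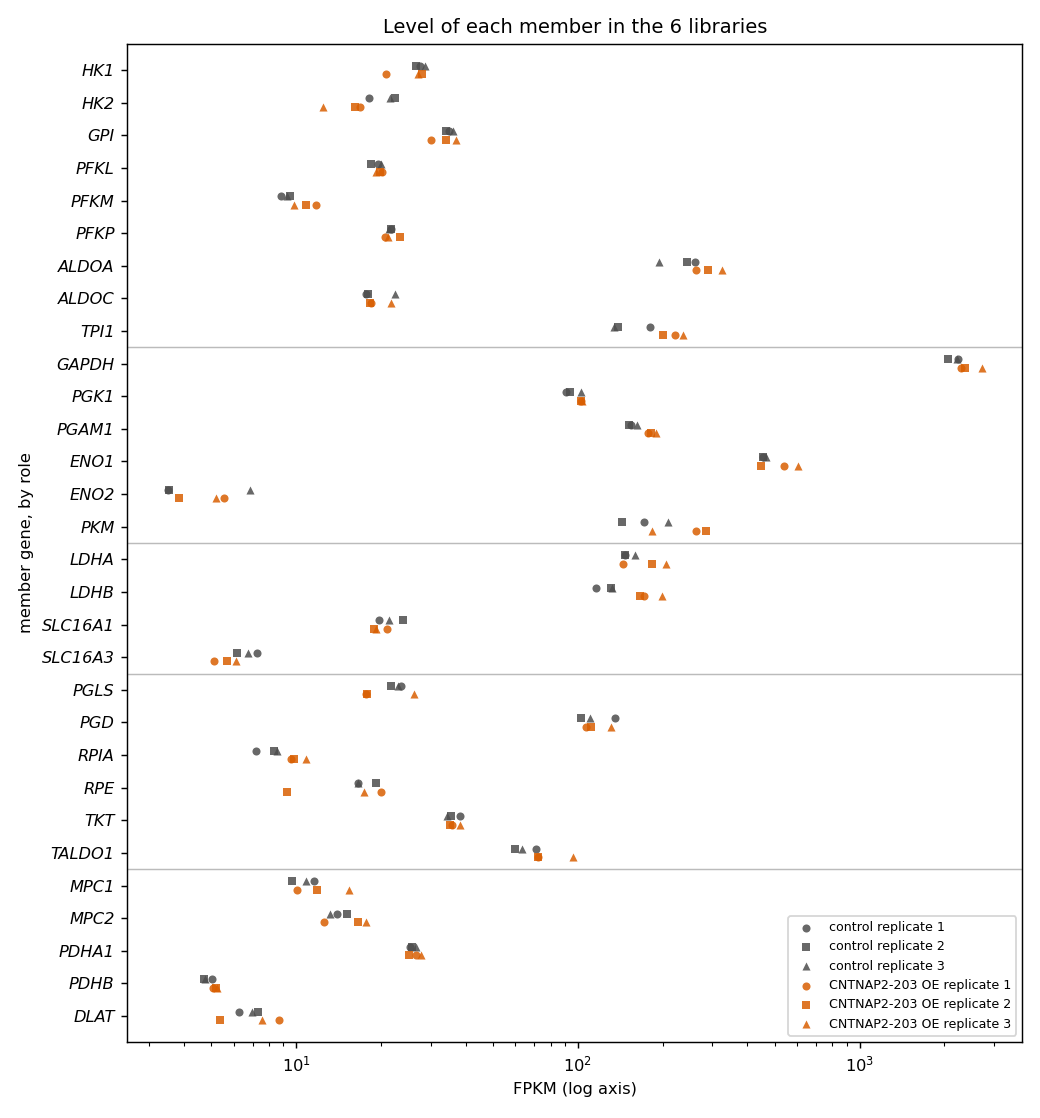
FPKM of each member in each library (x axis, log scale), with controls in grey, CNTNAP2-203 OE in orange and the marker shape giving the replicate. GAPDH, with a control mean of 2172 FPKM, lies far to the right of ENO2, PDHB and SLC16A3, and the groups overlap in 20 of the 30 members by CPM.

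Among the enzymes that trap glucose and carry it through upper glycolysis, triose phosphate isomerase was higher on average and hexokinase 2 lower, without passing the test. TPI1, which interconverts the triose phosphates, was at 586, 449 and 438 CPM in control replicates 1, 2 and 3 and at 734, 654 and 825 CPM in CNTNAP2-203 OE replicates 1, 2 and 3. Every CNTNAP2-203 OE library lay above every control, and control replicate 1 was the nearest to them. Its log2 fold change was 0.59 (SE 0.145, edgeR adjusted p = 0.102). TPI1 (12:6867119-6870948, plus strand) shares exon sequence with SPSB2 on the opposite strand, whose counts were 1.79% of its own. HK2, the inducible hexokinase of many tumours, was at 132, 163 and 158 CPM in the controls and 126, 119 and 97.7 CPM in CNTNAP2-203 OE. It was the 1 member with all CNTNAP2-203 OE libraries below all controls, although control replicate 1 and CNTNAP2-203 OE replicate 1 were close. The log2 fold change was -0.41 (SE 0.131, edgeR adjusted p = 0.174). HK2 lies at 2:74833981-74893359 on the plus strand, and an exon-overlapping lincRNA, AC019069.1, had 4.13% of its counts.

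The promoters of both genes are shown because they were the members of upper glycolysis with the smallest p in each direction. Each is 300 bases from RefSeq (GRCh38.p14), 5′ to 3′ along the gene, with capitals on each ACGTG or GCGTG on either strand, the core letters bound by hypoxia-inducible factors. Each window runs from 250 bases before a RefSeq start to 50 bases after it. For both genes that start lies downstream of the first base of the gene coordinates given above, which are from GENCODE. The TPI1 window lies wholly inside those coordinates, and other starts of the genes were not examined. TPI1 is chr12:6867281-6867580 (plus strand) and HK2 is chr2:74833877-74834176 (plus strand).
TPI1: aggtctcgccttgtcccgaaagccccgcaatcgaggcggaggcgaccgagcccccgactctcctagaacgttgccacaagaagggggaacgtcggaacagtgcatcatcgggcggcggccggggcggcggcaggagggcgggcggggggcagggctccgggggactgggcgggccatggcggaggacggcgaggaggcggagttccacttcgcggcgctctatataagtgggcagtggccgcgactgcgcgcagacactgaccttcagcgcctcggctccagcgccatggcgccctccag
HK2: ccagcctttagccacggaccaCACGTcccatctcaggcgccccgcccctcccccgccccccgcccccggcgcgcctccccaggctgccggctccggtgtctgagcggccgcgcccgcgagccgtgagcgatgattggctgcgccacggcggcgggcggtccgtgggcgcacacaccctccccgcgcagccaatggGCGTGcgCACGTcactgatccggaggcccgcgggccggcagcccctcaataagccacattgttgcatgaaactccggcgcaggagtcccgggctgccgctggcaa
The TPI1 window holds 0 of these letters and the HK2 window 3. A match is a description of letters and does not show that a factor binds there.

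HK1, the widely expressed hexokinase, was at 208, 201 and 219 CPM in the controls and 161, 213 and 220.1 CPM in CNTNAP2-203 OE, with CNTNAP2-203 OE replicate 1 below all other libraries. Its log2 fold change of -0.08 had an interval of -0.39 to 0.22. Per length, HK1 made up 57.3% of the 2 hexokinases in the controls and 62.4% in CNTNAP2-203 OE, with an FPKM ratio of HK1 to HK2 of 1.35 ± 0.167 in the controls and 1.71 ± 0.469 in CNTNAP2-203 OE. These ratios overlapped between groups (difference in log2 ratio 0.32, exact two-sided permutation p = 0.3). The difference was 0.12 without CNTNAP2-203 OE replicate 3 and 0.53 without CNTNAP2-203 OE replicate 1.

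Of the 3 phosphofructokinase genes, PFKM had the lowest CPM in every library, and none passed the test between the groups. PFKM, the muscle-type subunit, was at 77.3, 82.4 and 81.6 CPM in the controls and 104, 95.2 and 91.7 CPM in CNTNAP2-203 OE, with no overlap. This gave a log2 fold change of 0.27 (SE 0.094, edgeR adjusted p = 0.2). PFKM shares exon sequence with SENP1 on the opposite strand, which had 33.2% of its counts, and reads of the opposite strand cannot be told apart in these libraries. SENP1 had 3373 counts in the controls together and 3700 in CNTNAP2-203 OE together. Its part in the values of PFKM was not tested. PFKP, the platelet-type subunit, was at 146, 145 and 143 CPM and 139.7, 156 and 152 CPM, and PFKL, the liver-type subunit, at 211, 197 and 215 CPM and 221, 214 and 221 CPM, in controls and CNTNAP2-203 OE. Both overlapped between the groups, with intervals of -0.16 to 0.25 for PFKP and -0.13 to 0.27 for PFKL. The FPKM ratio of PFKP to PFKM was 2.35 ± 0.0977 in the controls and 2.02 ± 0.232 in CNTNAP2-203 OE (SD, n = 3 each), and all CNTNAP2-203 OE libraries had a lower ratio than all controls. With 3 against 3 libraries the exact two-sided permutation test cannot give a p below 0.1, which it gave here, and 0.45 after adjustment over the 9 pairs compared. The difference in this log2 ratio was -0.22, and -0.12 without CNTNAP2-203 OE replicate 1. The ratio of PFKP to PFKL was 1.12 ± 0.0564 in the controls and 1.102 ± 0.0794 in CNTNAP2-203 OE.

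ALDOA, the main aldolase, which splits fructose 1,6-bisphosphate, was at 1206, 1116 and 899 CPM in the controls and 1229, 1341 and 1609 CPM in CNTNAP2-203 OE. The groups did not overlap, but control replicate 1 and CNTNAP2-203 OE replicate 1 differed by less than the spread within either group. The fitted log2 fold change was 0.38 (SE 0.147, edgeR adjusted p = 0.246). ALDOC, the aldolase best known from brain, was at 55.8, 56.3 and 70.9 CPM and 59.1, 58.0 and 73.3 CPM, with the highest value of each group in its replicate 3 and a log2 fold change of 0.06. Per length, ALDOC was 7.86% of the 2 aldolases in the controls and 6.26% in CNTNAP2-203 OE. The difference in the log2 ratio of ALDOC to ALDOA was -0.32, and -0.084 without control replicate 3, which had the highest ratio of the controls. GPI, the isomerase between glucose 6-phosphate and fructose 6-phosphate, had a log2 fold change of -0.02, closest to 0 of all members, with an interval of -0.28 to 0.25.

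In lower glycolysis, from GAPDH to pyruvate kinase, the log2 fold change was above 0 in all 6 members (median 0.24), and 0 passed. Without CNTNAP2-203 OE replicate 3 the median of the 6 was 0.11, and 5 of 6 were above 0 without control replicate 1 or without control replicate 2. The largest was in PKM, the pyruvate kinase gene, at 1784, 1474 and 2172 CPM in the controls and 2758, 2949 and 2029 CPM in CNTNAP2-203 OE. CNTNAP2-203 OE replicates 1 and 2 lay above all controls, while CNTNAP2-203 OE replicate 3 lay below control replicate 3. In the fit, the log2 fold change was 0.51 (SE 0.184, edgeR adjusted p = 0.214). These are counts per gene, so the spliced forms PKM1 and PKM2 cannot be told apart.

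PGAM1, phosphoglycerate mutase, was at 476, 463 and 501 CPM in the controls and 555, 561 and 621 CPM in CNTNAP2-203 OE, with no overlap and little spread in either group. The log2 fold change was 0.27 (SE 0.094, edgeR adjusted p = 0.2). GAPDH, which oxidises glyceraldehyde 3-phosphate and is often used as a reference gene, was at 6477, 5892 and 6412 CPM and 6711, 6875 and 8383 CPM. All CNTNAP2-203 OE libraries were above all controls, and CNTNAP2-203 OE replicate 3 stood above the other two of its group. Its log2 fold change was 0.23 (SE 0.117, edgeR adjusted p = 0.37). PGK1, which makes ATP from 1,3-bisphosphoglycerate, had a mean of 629 ± 41.7 CPM in the controls and 695 ± 26.4 CPM in CNTNAP2-203 OE (SD, n = 3 each), a log2 fold change of 0.14 with an interval of -0.07 to 0.36.

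ENO1, the main enolase, was at 2860.4, 2838 and 2945 CPM in the controls and 3432, 2825 and 4084 CPM in CNTNAP2-203 OE. The controls lay close together, and CNTNAP2-203 OE replicate 2 lay below them while replicates 1 and 3 lay above. ENO2, the enolase of neurons, was at 18.3, 18.3 and 35.7 CPM and 29.2, 20.02 and 28.9 CPM, with control replicate 3 the highest of all libraries and far from the other controls. Its interval, -0.59 to 0.82, was the widest of the members, and its FPKM was 1.00% of the 2 enolases in the controls and 0.909% in CNTNAP2-203 OE. The difference in the log2 ratio of ENO2 to ENO1 was -0.07, and 0.23 without control replicate 3.

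Lactate dehydrogenase gave the member with the smallest p. LDHB encodes the subunit typical of heart, whose tetramers favour the oxidation of lactate, and LDHA the subunit typical of muscle and many tumours, whose tetramers favour the making of lactate. LDHB was at 416, 469 and 475 CPM in control replicates 1, 2 and 3 and at 625, 598 and 763 CPM in CNTNAP2-203 OE replicates 1, 2 and 3. All CNTNAP2-203 OE libraries lay well above all controls, with replicate 3 the highest. This gave a log2 fold change of 0.55 (SE 0.122, edgeR adjusted p = 0.0798). The edgeR adjusted p was 0.0413 without CNTNAP2-203 OE replicate 3, with a smaller log2 fold change of 0.43, and 0.278 at most when 1 other library was left out. With all 6 libraries, DESeq2 gave LDHB an adjusted p of 0.00546 and TPI1 one of 0.0120, or 0.00865 and 0.0175 on the genes that passed the low count filter of the edgeR fit.

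LDHA was at 1076, 1062 and 1163 CPM in the controls and 1071, 1337 and 1602 CPM in CNTNAP2-203 OE. CNTNAP2-203 OE replicate 1 lay among the controls and the other two above them. The log2 fold change was 0.28 (SE 0.148, edgeR adjusted p = 0.379). Per length the genes were near each other, with an FPKM ratio of LDHB to LDHA of 0.784, 0.896 and 0.829 in control replicates 1, 2 and 3 and 1.19, 0.908 and 0.967 in CNTNAP2-203 OE replicates 1, 2 and 3. LDHB thus made up 45.5% of the 2 in the controls and 50.3% in CNTNAP2-203 OE. The groups did not overlap, but control replicate 2 and CNTNAP2-203 OE replicate 2 almost touched, and the difference in log2 ratio of 0.28 was 0.17 without CNTNAP2-203 OE replicate 1. The exact two-sided permutation p was 0.1, the smallest this design allows, and 0.45 after adjustment over the 9 pairs.

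Their promoters are shown to compare the 2 genes, in the same form as above. LDHB is chr12:21657793-21658092 (minus strand) and LDHA is chr11:18394313-18394612 (plus strand), both GRCh38.p14.
LDHB: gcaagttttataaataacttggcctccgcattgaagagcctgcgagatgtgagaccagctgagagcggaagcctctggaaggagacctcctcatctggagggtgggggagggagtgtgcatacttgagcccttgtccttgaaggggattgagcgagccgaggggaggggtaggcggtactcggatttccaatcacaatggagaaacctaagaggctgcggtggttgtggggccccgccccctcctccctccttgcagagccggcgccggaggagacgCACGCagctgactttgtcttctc
LDHA: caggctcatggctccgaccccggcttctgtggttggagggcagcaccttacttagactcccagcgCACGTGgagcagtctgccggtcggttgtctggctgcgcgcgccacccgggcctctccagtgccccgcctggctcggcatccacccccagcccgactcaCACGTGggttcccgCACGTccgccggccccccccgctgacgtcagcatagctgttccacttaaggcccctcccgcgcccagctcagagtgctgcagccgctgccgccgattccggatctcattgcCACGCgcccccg
The LDHB window holds 1 match. In the LDHA window 6 matches fall in 4 runs of capitals, since each of its 2 CACGTG runs, the E-box letters bound by MYC and its partners, reads as ACGTG on both strands. Of the 29 members with a promoter in the RefSeq table, 18 (62.1%) hold ACGTG or GCGTG on either strand, against 54.7% of 22199 promoters of protein-coding genes and 48.4% of all 35116. CACGTG, which contains ACGTG, is in 13.8% of the members' windows, against 8.34% of the coding ones and 7.26% of all. The GC box letters GGGCGG, on either strand, are in 24 members' windows (82.8%), against 56.3% of the coding ones and 45.0% of all.

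The carriers that export lactate had lower means in CNTNAP2-203 OE, within the spread of the libraries. SLC16A1, which encodes the carrier MCT1, was at 127, 154 and 138 CPM in the controls and 137, 122 and 132 CPM in CNTNAP2-203 OE. SLC16A3, which encodes MCT4, the carrier of strongly glycolytic cells, was at 79.0, 66.9 and 73.7 CPM and 56.4, 61.9 and 71.2 CPM. Both overlapped between the groups, with intervals of -0.34 to 0.15 for SLC16A1 and -0.49 to 0.06 for SLC16A3. SLC16A3 shares exon sequence with CSNK1D on the opposite strand, which had 216% of its counts. CSNK1D had 19071 counts in the controls together and 16105 in CNTNAP2-203 OE together, and its part in the values of SLC16A3 was not tested. SLC16A1 shares exon sequence with SLC16A1-AS1 on the opposite strand, which had 13.2% of its counts (2318 in the controls together and 1970 in CNTNAP2-203 OE together). Per length SLC16A3 was the rarer of the 2 carriers, with an FPKM ratio to SLC16A1 of 0.313 ± 0.0554 in the controls and 0.287 ± 0.0396 in CNTNAP2-203 OE.

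**Figure D3:**
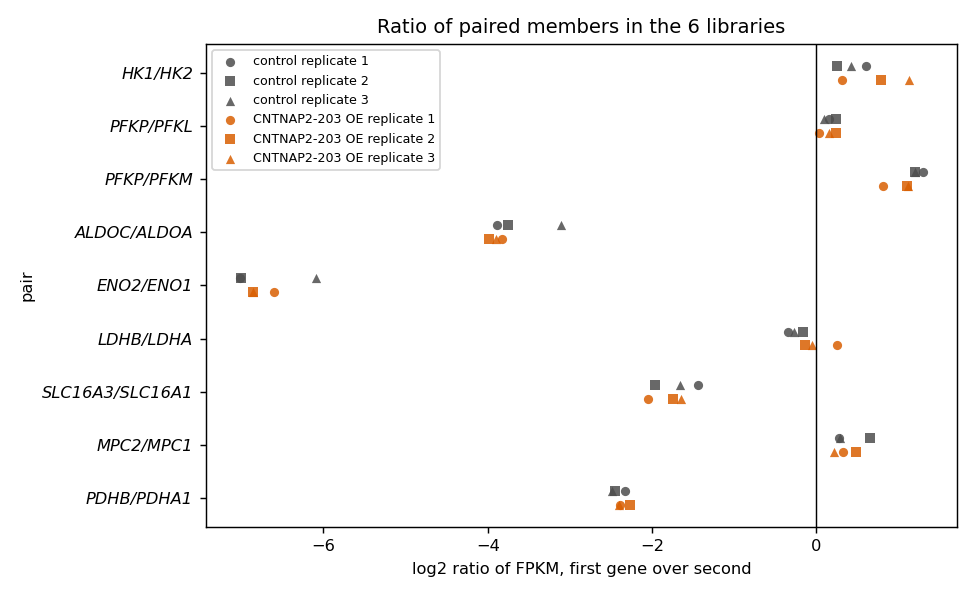
Log2 ratio of FPKM of the first over the second gene of each of the 9 pairs (x axis) in each library, controls in grey and CNTNAP2-203 OE in orange, marker shape giving the replicate. The groups do not overlap for LDHB/LDHA and PFKP/PFKM, each with an exact permutation p of 0.1, and overlap for the other 7 pairs.

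In the pentose phosphate pathway, the means of RPIA and TALDO1 were higher, and 0 of the 6 members passed the test. RPIA, the isomerase that makes ribose 5-phosphate, was at 15.8, 18.1 and 18.8 CPM in the controls and 21.3, 21.5 and 25.4 CPM in CNTNAP2-203 OE, with no overlap. The fitted log2 fold change was 0.37 (SE 0.132, edgeR adjusted p = 0.21). TALDO1, transaldolase, which returns sugars to glycolysis, was at 249, 207 and 222 CPM and 257, 254 and 359 CPM. Control replicate 1 lay just under CNTNAP2-203 OE replicates 1 and 2, and replicate 3 stood far above them. The log2 fold change of TALDO1 was 0.36 (SE 0.154, edgeR adjusted p = 0.286), and 0.17 without CNTNAP2-203 OE replicate 3.

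TKT, transketolase, the partner of transaldolase, had a mean of 412 ± 22.2 CPM in the controls and 429.5 ± 32.4 CPM in CNTNAP2-203 OE (SD, n = 3 each; log2 fold change 0.06). PGD, which makes NADPH and ribulose 5-phosphate, was at 467 ± 70.2 and 483 ± 69.4 CPM, with an interval of -0.29 to 0.39 in log2 fold change. PGLS, the lactonase before it, was at 80.7, 73.8 and 79.1 CPM in the controls and 61.6, 61.1 and 96.1 CPM in CNTNAP2-203 OE, where replicates 1 and 2 lay below all controls and replicate 3 above them. The log2 fold change of PGLS was -0.10 with an interval of -0.51 to 0.32, and -0.35 (edgeR adjusted p = 0.0716) without CNTNAP2-203 OE replicate 3. RPE, the epimerase of ribulose 5-phosphate, was at 70.6, 81.3 and 71.1 CPM and 86.2, 39.9 and 79.4 CPM. It shares exon sequence with KANSL1L on the opposite strand, which had 16% of its counts (1344 in the controls together and 1386 in CNTNAP2-203 OE together). CNTNAP2-203 OE replicate 2 was far below all other libraries in RPE, and its coefficient of variation of 36.5% was the highest of the members in that group. The median over the 6 genes of the pathway was 0.06 in log2 fold change, and -0.04 without CNTNAP2-203 OE replicate 3.

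The genes that bring pyruvate into mitochondria and on to acetyl-CoA had small positive log2 fold changes, from 0.08 to 0.26, and 0 of 5 had an unadjusted p under 0.05. Their median was 0.14, and 0.044 without CNTNAP2-203 OE replicate 3. MPC1 and MPC2, which form the mitochondrial pyruvate carrier together, were at 21.6, 17.9 and 20.3 and at 44.6, 48.0 and 42.2 CPM in the controls. In CNTNAP2-203 OE, MPC1 was at 19.1, 22.2 and 30.6 CPM and MPC2 at 40.7, 53.0 and 60.6 CPM. CNTNAP2-203 OE replicate 1 lay within the controls in MPC1 and below them in MPC2. In both genes, CNTNAP2-203 OE replicate 3 was the highest of all libraries. MPC2 shares exon sequence with DCAF6 on the opposite strand, which had 213% of its counts (13131 in the controls together and 11266 in CNTNAP2-203 OE together). The FPKM ratio of MPC2 to MPC1 was 1.33 ± 0.207 in the controls and 1.27 ± 0.123 in CNTNAP2-203 OE, with a difference in log2 ratio of -0.06 (exact two-sided permutation p = 0.7).

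PDHA1, the catalytic alpha subunit of pyruvate dehydrogenase, was at 138, 139.6 and 145 CPM in the controls and 147, 137 and 161 CPM in CNTNAP2-203 OE. PDHB, the beta subunit, was at 28.7, 26.7 and 27.1 CPM and 29.4, 29.8 and 32.0 CPM, with all CNTNAP2-203 OE libraries above all controls and a log2 fold change of 0.14 (SE 0.102, edgeR adjusted p = 0.507). Though the alpha and beta subunits are part of 1 complex, PDHB had 0.187 ± 0.0109 of the FPKM of PDHA1 in the controls and 0.196 ± 0.00971 in CNTNAP2-203 OE (SD, n = 3 each). DLAT, the transacetylase core of the complex, was at 36.7, 42.4 and 40.9 CPM and 51.3, 31.3 and 47.2 CPM, and CNTNAP2-203 OE replicate 2 lay below every control.

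CNTNAP2-203 OE replicate 3 had the highest level of all libraries in 20 of the 30 members, beside 28.7% of all tested genes that were highest in it and 27.6% that were lowest. Set against the mean of the controls, the members had a median log2 CPM of -0.01, -0.04 and 0.03 in the individual controls. The CNTNAP2-203 OE libraries gave 0.09, 0.07 and 0.25 for replicates 1, 2 and 3. Without CNTNAP2-203 OE replicate 3 the median log2 fold change of the members was 0.05, with 20 of 30 above 0. Leaving out any of the other 5 libraries gave medians of 0.12 to 0.17 and 21 to 25 members above 0. The log2 fold change was smaller or more negative without that library in 27 members and larger in 3, which were PKM, PFKM and HK2. Those of GAPDH, ENO1, LDHA and MPC1 were 0.11, 0.11, 0.13 and 0.04 without it.

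**Figure D4:**
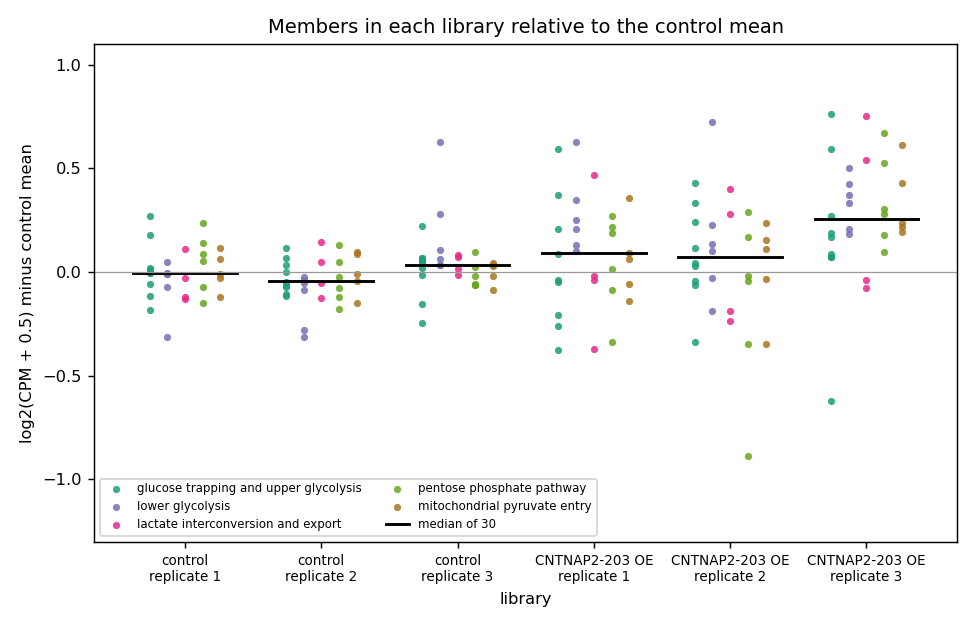
Log2(CPM + 0.5) of each member minus its control mean (y axis) in each of the 6 libraries (x axis), coloured by role, with the median of the 30 as a black bar. The median is 0.25 in CNTNAP2-203 OE replicate 3 and at most 0.09 in the other libraries.

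**Figure D5:**
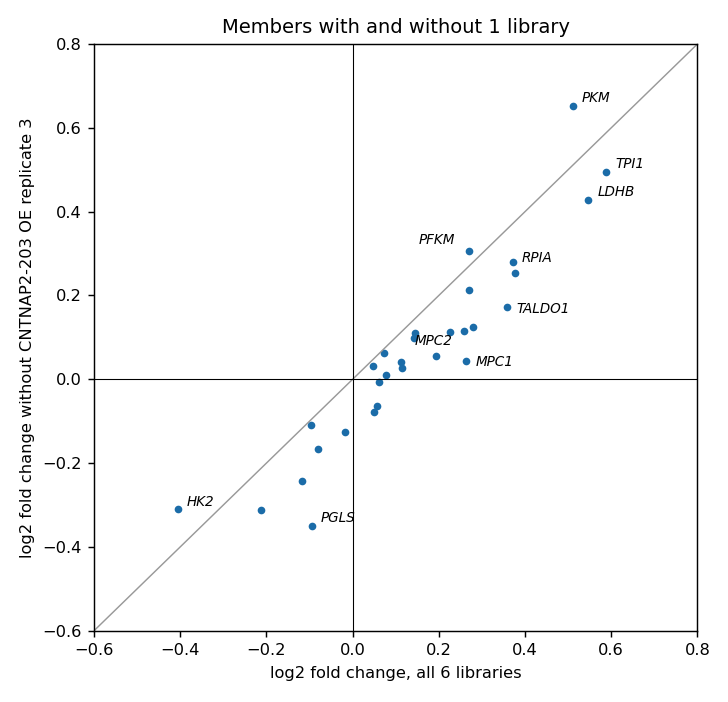
Log2 fold change of each member from all 6 libraries (x axis) against that without CNTNAP2-203 OE replicate 3 (y axis), with the line of equality in grey. Of the 30 points 27 lie below the line, and PKM, PFKM and HK2 lie above it.

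Many of the members have processed pseudogenes, whose reads can be split from or added to the parent's. The table holds 109 rows named as numbered pseudogenes of 13 members, 62 of them of GAPDH. Their counts were 1.41% of those of TPI1 and less than that for every other member, and adding them to the parent changed no call. How reads that match both parent and pseudogene were counted is not given. Any such reads left out of both rows would not show in these sums.

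Of 57 other listed genes of the pathway, 39 were tested and 1 fell. PCK2, the mitochondrial phosphoenolpyruvate carboxykinase, which makes phosphoenolpyruvate from oxaloacetate, was at 95.3, 94.3 and 78.2 CPM in the controls and 44.7, 38.4 and 54.9 CPM in CNTNAP2-203 OE. All CNTNAP2-203 OE libraries lay far below all controls. In the fit, the log2 fold change was -0.96 (SE 0.151, edgeR adjusted p = 0.036). The edgeR adjusted p was 0.0102 without CNTNAP2-203 OE replicate 3 and 0.0777 to 0.164 without each of the other 5 libraries, so the call was lost in those fits, while the log2 fold change was -0.84 to -1.05 in them. The median over the 39 was 0.03, with 23 above 0, and 2 were higher and 4 lower at an unadjusted p under 0.05. These counts are 59.0%, 5.13% and 10.3% of the 39, beside 49.6%, 9.41% and 7.84% of all tested genes.

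None of the other genes with a small p passed. SLC2A1, the glucose transporter GLUT1, was at 353, 365 and 419 CPM in the controls and 287, 266 and 318 CPM in CNTNAP2-203 OE, with no overlap (log2 fold change -0.39 (SE 0.112, edgeR adjusted p = 0.145)). PDK1, a kinase that inhibits pyruvate dehydrogenase, was at 47.4, 58.0 and 64.1 CPM and 46.1, 39.4 and 43.1 CPM, also with all CNTNAP2-203 OE libraries below all controls (log2 fold change -0.40). SLC2A6, a glucose transporter family member, was at 45.6, 42.5 and 43.4 CPM and 54.9, 56.4 and 63.2 CPM, with all CNTNAP2-203 OE libraries above all controls (log2 fold change 0.41 (SE 0.0991, edgeR adjusted p = 0.097)). PFKFB4, a bifunctional enzyme that sets fructose 2,6-bisphosphate, was higher on average (log2 fold change 0.50). It shares exon sequence with UCN2 on the same strand, which had 23.8% of its counts. UCN2 had 250 counts in the controls together and 332 in CNTNAP2-203 OE together.

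Among 16 citric acid cycle enzymes, all tested, 0 passed by edgeR, and 3 were higher and 0 lower at an unadjusted p under 0.05. Of them, 14 had a positive log2 fold change, the median was 0.15, and in 7 all CNTNAP2-203 OE libraries lay above all controls. These counts are 87.5% positive, 43.8% all above and 18.8% higher at the unadjusted p, beside 49.6%, 13.7% and 9.41% of all tested genes, and nothing particular to the list is read from them. The smallest p was in FH, fumarase, at 103, 102 and 108 CPM in the controls and 128, 131 and 155 CPM in CNTNAP2-203 OE (log2 fold change 0.41 (SE 0.105, edgeR adjusted p = 0.113)). Without CNTNAP2-203 OE replicate 3 the median of these enzymes was 0.07, with 14 still above 0. DESeq2 called FH and SLC2A6 higher, in addition to PCK2 lower, and on the genes kept by the low count filter it also called PFKFB4 higher (adjusted p = 0.0497).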

How the data were processed

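Per the labels' protocols, ribosomal RNA was removed from total RNA of the 6 samples and libraries were built with TruSeq RNA v2, an unstranded kit. Trim Galore 0.4.4 and hg38 are named in the submitters' processing notes. The aligner, the counting tool and its annotation were not given in the sources used here. Control replicate 1 lacks its reverse read file per the labels, and it is unknown whether its counts used both reads. The authors deposited raw counts per gene, not normalized, and a table of log2 values. From their relation to the deposited counts the log2 values are log2(FPKM + 1), since the gene length implied by both tables varied between libraries by a median of 0.24% with an offset of 1 and 3.28% with 0.

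Counts were filtered with filterByExpr (minimum count 10), scaled by TMM and compared with edgeR 4.0.16 in R 4.3.3 (robust quasi-likelihood test, group as the only term, Benjamini-Hochberg over 18786 genes, threshold 0.05). The common dispersion corresponded to a biological coefficient of variation of 0.226, and SEs are the absolute log2 fold change over the square root of F, and intervals use the t distribution. FPKM values are the deposited log2 values turned back to linear. DESeq2 1.42.0 and limma 3.58.1 were alternatives, with other scalings, no filter, single libraries left out, a replicate block and pseudogene counts added. The edgeR fit was tested on simulated counts.

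The members, lists and tests were chosen with earlier results of these data known. By rule, any member could be named, with values per library for the 10 with the smallest p and for the 9 pairs (PGLS, RPE and DLAT were added after their values were seen), and of other pathway genes the called ones and the 6 with the smallest p. Coordinates and overlaps are from GENCODE 29 (GRCh38), to which all 30 members matched, and promoters from RefSeq (GRCh38.p14), which held 29 of the members.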

Additional observations from a re-analysis of the deposited data

How the results depend on the processing

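With DESeq2 in place of edgeR, 2 members and 2 of the other pathway genes, citric acid cycle enzymes included, were called higher. That run took all genes with DESeq2's own filtering. With DESeq2 on the genes kept for edgeR, an alternative chosen after seeing the data, the same 2 members and 3 of the other genes were called higher. The number of members called higher was 0 to 1 when 1 library was left out, with LDHB called without CNTNAP2-203 OE replicate 3, and members called lower were 0 in every fit run. Other pathway genes called lower were 0 to 1 when 1 library was left out and 0 with the replicate block, under which the adjusted p of PCK2 was 0.113 at a log2 fold change of -0.97. Same-numbered libraries did not deviate together (correlations of -0.123, 0.0374 and -0.0353). With 3 libraries a group this cannot tell whether same-numbered libraries were handled together. The block left 0 members called. Leaving out 1 library moved the log2 fold change across 0 for HK1 (-0.17 to 0.051), GPI (-0.13 to 0.069), ALDOC (-0.063 to 0.18), ENO2 (-0.050 to 0.51), PGLS (-0.35 to 0.019), PGD (-0.079 to 0.18), RPE (-0.32 to 0.16), TKT (-0.0073 to 0.10) and DLAT (-0.026 to 0.30), and the cause was not tested. RLE or total count scaling, no filter, limma-voom, limma-trend and added pseudogene counts changed the direction of no member and no call, with 23 of 30 members above 0 in each. Total counts moved the median of all genes to -0.04 and that of the members to 0.09. With 3 libraries a group, differences well under 2-fold can be missed.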
